A study of Mus musculus with 27 samples.

Results

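A set of 37 macrophage and monocyte genes was followed through RNA sequencing of mouse hepatic stellate cells (HSCs), the fat-storing pericytes of the liver, after acute and chronic injury with carbon tetrachloride (CCl4). The genes were given by name and no measured value entered the rule, but the names were chosen with earlier results of these data known. Each of the 37 matched 1 gene identifier among the 53379 genes of the count table. By role they were divided into 7 Kupffer cell genes, 3 C1q chains, 5 lysosomal and antimicrobial effectors, 7 surface receptors, 9 leukocyte adaptors and pan-leukocyte genes, 4 monocyte genes and 2 transcription factors.

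Macrophages of the liver have separate origins. Kupffer cells are resident, self-renewing macrophages that sit in the sinusoids and carry Clec4f, Timd4, Vsig4 and the scavenger receptors Marco and Cd163. Blood monocytes, marked by Ly6c2 and Chil3, enter the injured liver and mature there into macrophages, which gain lysosomal and receptor genes such as Lyz2, Cd68, Adgre1 (F4/80) and the Fc receptors. Development of both depends on the factor PU.1, encoded by Spi1, and on the receptor Csf1r with its ligands Csf1 and Il34. HSCs are not known to express most of these genes, so in a preparation of sorted HSCs their RNA may come from other cells or from the HSCs themselves, and bulk counts hold both. In bulk libraries fewer cells of a type and less RNA per cell cannot be told apart.

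All mice were male Balb/c. HSCs were sorted by the ultraviolet autofluorescence of their retinoid droplets and were sequenced without culture. Healthy mice received no injection (n = 4) and were 10 to 12 weeks old. Acute groups, also 10 to 12 weeks old, received 1 intraperitoneal injection of CCl4 (0.5 µL per g, in mineral oil) with 3 libraries taken at 24 h and 4 each at 72 h and at 7 d. Chronic groups were 8 to 10 weeks old at the start, received 8 injections over 4 weeks, and were sampled 24 h, 72 h or 14 d after the last (n = 4 each). The controls were not injected with oil, so the effects of CCl4, of oil and of the injection itself cannot be told apart, and a sort on retinoid fluorescence alone does not name every cell that passes with the HSCs. Chronic mice were sampled after the 4 weeks of injections, so age at sampling was not matched between them and the healthy or acute mice. Its part in those comparisons was not tested. Per the study's methods each replicate was a separate experiment.

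The 27 libraries held 6314801 to 13052838 counts. Of these, 8 were of lower depth, with at most 7580709 counts, against at least 10792560 in the others. Depth did not spread evenly over the design. They were the first pair of replicates in each of the chronic 24 h and 72 h groups, and the whole chronic 14 d group, so that group and depth cannot be told apart at chronic 14 d. Markers of stellate cells were abundant throughout, with a summed level of 29990 to 49222 CPM (counts scaled to a common library total) in healthy libraries and 15936 to 35231 CPM in injured ones. The 37 members together took 0.102% to 0.215% of all counts in healthy libraries, 0.0674% to 0.0909% at acute 24 h, 0.159% to 0.192% at acute 72 h and 0.72% to 1.54% at acute 7 d. After chronic injury they took 0.145% to 0.634% at 24 h, 0.299% to 0.618% at 72 h and 0.275% to 0.448% at 14 d.

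Lyz1 and Lyz2, which encode the lysozymes, are neighbours on the minus strand of chromosome 10, at positions 117287797 to 117292868 and 117277331 to 117282321 (GRCm38). Their promoters are shown because Lyz2 became the most abundant member while Lyz1 followed at a lower level, and because reads can fall in sequence that both genes share. Each line holds the 250 bases before the gene start of the RefSeq promoter table (GRCm38.p6), minus strand, 5′ to 3′, at chr10:117292869-117293118 for Lyz1 and chr10:117282273-117282522 for Lyz2. The start of Lyz2 in the gene annotation lies further upstream, inside the printed stretch. Capitals mark bases that differ or stand opposite a gap in a global alignment of the pair, in which 205 positions were identical (78.85%) and 35 were mismatched.
Lyz1: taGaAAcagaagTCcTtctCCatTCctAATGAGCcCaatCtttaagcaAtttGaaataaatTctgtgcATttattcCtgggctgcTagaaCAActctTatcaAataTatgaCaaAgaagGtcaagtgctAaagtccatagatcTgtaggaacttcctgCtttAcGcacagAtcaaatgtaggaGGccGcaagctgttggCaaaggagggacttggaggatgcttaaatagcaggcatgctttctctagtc
Lyz2: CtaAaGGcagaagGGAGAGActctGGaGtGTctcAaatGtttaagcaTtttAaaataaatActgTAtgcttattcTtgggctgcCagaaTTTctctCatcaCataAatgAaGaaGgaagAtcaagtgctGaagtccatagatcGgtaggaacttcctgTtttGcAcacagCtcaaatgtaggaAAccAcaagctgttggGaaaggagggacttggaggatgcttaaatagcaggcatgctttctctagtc

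PU.1 binds purine-rich DNA, and a short motif of its type, GAGGAAG, was looked for on both strands in promoter windows of 300 bases, 250 before and 50 after the RefSeq start. A window was found for 28 of the 37 members, and 9 of these 28 (32.1%) held the motif, against 4152 of 27025 genes (15.4%). The 9 were C1qc, Cd53, Cd5l, Fcgr1, Fcgr3, Laptm5, Ly6c2, Marco and Mrc1. Promoters of 4 of them are printed as examples of Kupffer cell genes and receptors that went separate ways in the results, with the 250 upstream bases on the gene's strand and the motif, on either strand, in capitals. Cd5l lies at chr3:87357631-87357880 (plus strand), Fcgr1 at chr3:96293970-96294219 (minus), Marco at chr1:120505025-120505274 (minus) and Mrc1 at chr2:14229164-14229413 (plus), where the annotated gene start again lies inside the printed stretch.
Cd5l: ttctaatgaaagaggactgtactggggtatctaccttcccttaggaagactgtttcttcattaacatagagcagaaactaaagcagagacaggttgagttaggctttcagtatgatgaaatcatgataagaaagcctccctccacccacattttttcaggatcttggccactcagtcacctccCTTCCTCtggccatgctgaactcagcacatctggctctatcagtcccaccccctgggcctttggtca
Fcgr1: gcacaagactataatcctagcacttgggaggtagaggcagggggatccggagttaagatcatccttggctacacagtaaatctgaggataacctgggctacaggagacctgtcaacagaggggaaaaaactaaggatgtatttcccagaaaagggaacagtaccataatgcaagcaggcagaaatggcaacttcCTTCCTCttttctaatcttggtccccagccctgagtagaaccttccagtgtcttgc
Marco: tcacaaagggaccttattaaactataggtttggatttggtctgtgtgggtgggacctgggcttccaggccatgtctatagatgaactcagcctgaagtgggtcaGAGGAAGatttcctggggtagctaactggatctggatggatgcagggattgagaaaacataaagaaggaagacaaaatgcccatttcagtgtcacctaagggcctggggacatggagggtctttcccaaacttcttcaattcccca
Mrc1: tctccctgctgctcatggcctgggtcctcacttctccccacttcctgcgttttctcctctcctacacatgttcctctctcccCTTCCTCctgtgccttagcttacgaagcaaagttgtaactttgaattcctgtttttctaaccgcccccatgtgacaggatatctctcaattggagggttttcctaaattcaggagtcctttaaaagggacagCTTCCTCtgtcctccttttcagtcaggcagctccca
A match gives the position of these letters only, and binding was not measured.

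In healthy mice the members ranged from absent to well expressed. Divided by exon length, the highest mean levels were those of Plac8 (95.6 CPM per kb), the iron exporter Slc40a1 (82.4 CPM per kb), Clec4f (48.7 CPM per kb) and Lyz2 (45.03 CPM per kb). The chains of C1q, which start the classical complement pathway and are made by macrophages, followed at 41.9 CPM per kb for C1qb, 33.8 for C1qa and 27.02 for C1qc. The SDs over the 4 mice were wide (73.7 CPM on a mean of 120.3 CPM for Clec4f and 24.3 CPM on 45.6 CPM for C1qb). Differences between neighbours in this order were not tested within libraries. Marco and Chil3 had no count in any healthy library. The healthy libraries also differed among themselves in one direction, since replicate 2 was the lowest and replicate 4 the highest for Clec4f, Timd4, Vsig4, Cd5l, Cd163, C1qa, C1qb, C1qc and Lyz2.

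**Figure D1:**
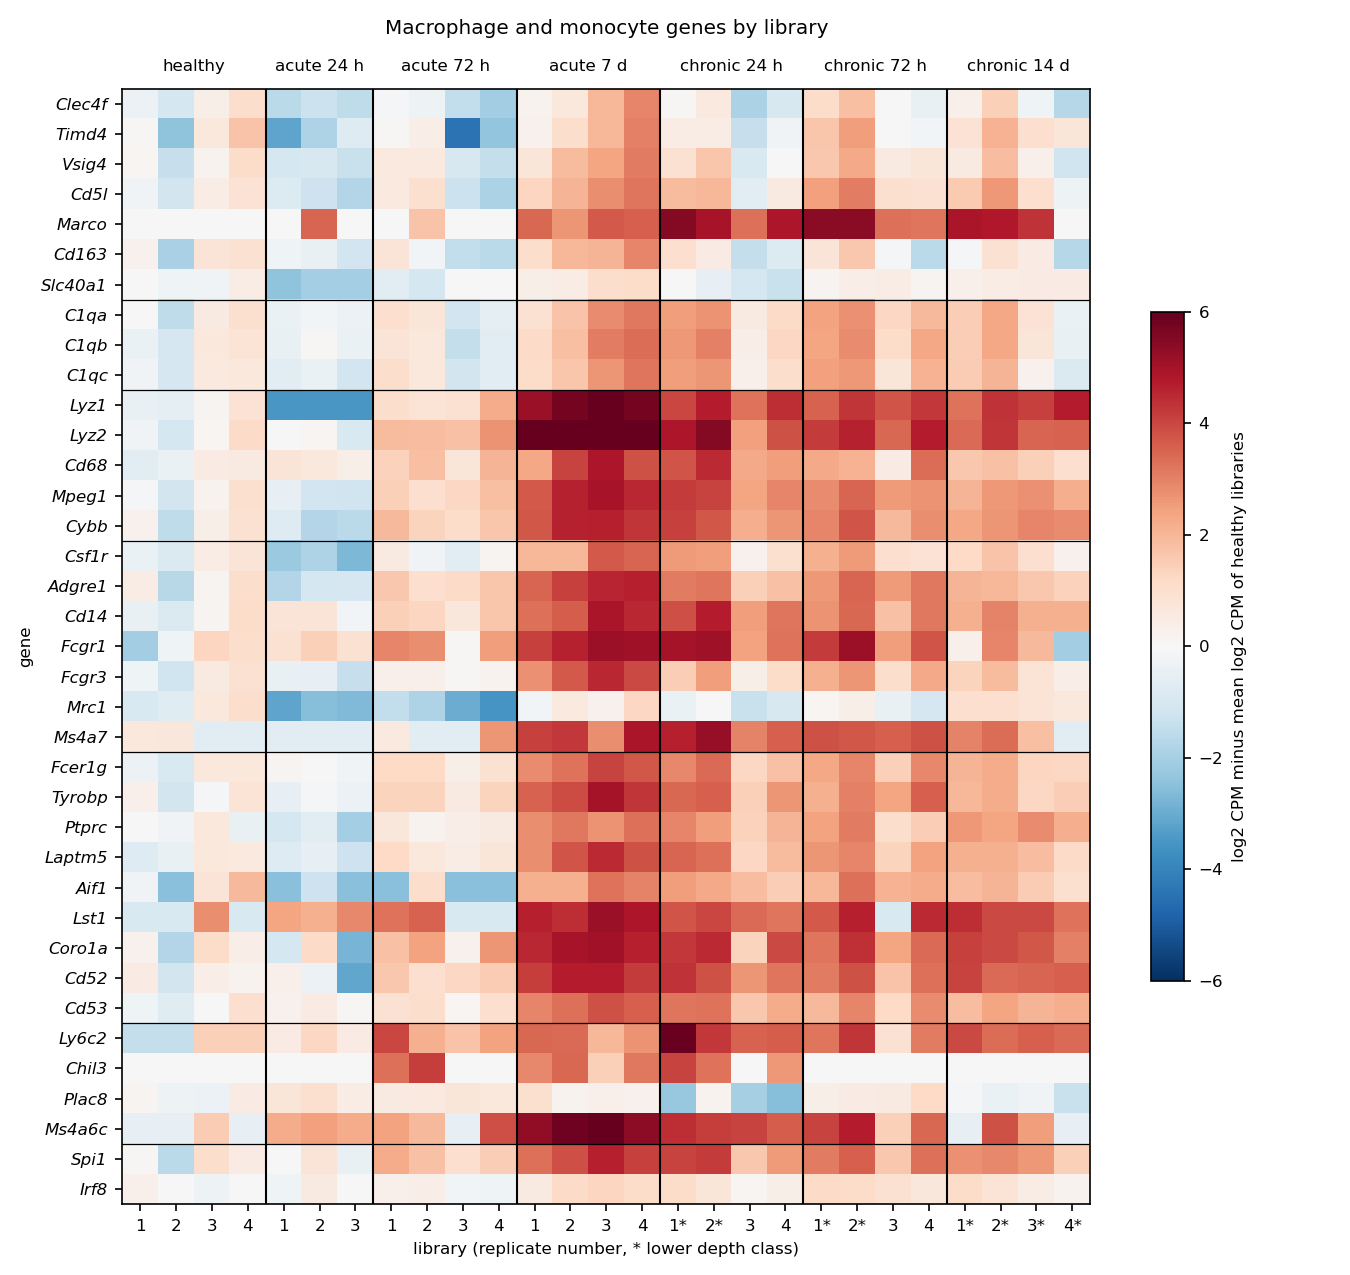
Level of the 37 members (rows, by role) in the 27 libraries (columns, by group), as log2 CPM minus the mean of the healthy libraries, with the colour scale ending at 6 in either direction and an asterisk for libraries of lower depth. The 4 libraries of acute 7 d are above healthy for nearly every row, and the 3 of acute 24 h are below it for many.

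Differences between groups were tested with edgeR across 18758 genes that passed a filter on low counts, all 37 members among them, and a gene was called when its adjusted p was below 0.05 and its change above 2-fold. Every adjusted p below comes from edgeR's quasi-likelihood test with Benjamini-Hochberg adjustment over all genes tested, and log2 fold changes are followed by their standard error (SE).

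The first question was what a single injury did to these genes. At 24 h, 8 members were lower than in healthy HSCs and 1 was higher, of 37. Of all genes tested, 12.5% were called lower and 9.41% higher. The median log2 fold change of the members was -0.71, and -0.56 when genes with at most 3 counts in each library of a group were set to the limit that 3 counts per library give, against -0.12 over all genes. The genes that fell came from several roles and included 3 receptors, namely Csf1r, Adgre1 and Mrc1. DESeq2 called 11 lower and 1 higher, with Clec4f, Timd4 and Mpeg1 besides these 8. Of the 37181 genes with a count it called 2693 lower and 1743 higher. Clec4f was also called lower when only the groups compared were fitted.

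Csf1r, the receptor for the macrophage growth factors, had 29.6, 21, 53.1 and 67.1 CPM in healthy libraries and 8.01, 10.7 and 5.88 CPM at acute 24 h. The groups did not overlap (log2 fold change -2.38, SE 0.61, adjusted p = 0.00423). About 13.9% of the 75-base windows of Csf1r lie over Hmgxb3 on the opposite strand, and whether the counting used strand is not given in the sources used here. Mrc1, the mannose receptor, which liver sinusoidal endothelial cells also carry, fell from 15.9, 18.3, 46.9 and 62.6 CPM to 3.21, 5.03 and 4.65 CPM (-3.06, SE 0.54, adjusted p = 0.000132). Every acute 24 h library lay below every healthy one for Mrc1 as well. A list of 10 sinusoidal endothelial markers moved with Mrc1, since 6 of 10 were called lower and 1 higher and their summed level was 168.7 to 533.2 CPM in healthy against 88.3 to 119.7 CPM in acute 24 h libraries. Its part in the fall of Mrc1 was not tested.

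Slc40a1, which encodes ferroportin and is shared with other liver cells, had 737, 604, 629 and 996 CPM in healthy libraries. At acute 24 h it had 137, 176 and 178 CPM. The fall was large against the spread and was called in each fit that left out 1 library (-2.18, SE 0.30, adjusted p = 6.38e-06). Lyz1 had 1.36, 1.27, 2.19 and 3.73 CPM in healthy libraries and no count in any of the 3 acute 24 h libraries. Against a floor of 3 counts per library, which covers counting error only, it was at least 8.1-fold lower (adjusted p = 2.17e-05). The same limit holds for the other bounds given as "at least" below. About 6.22% of the windows of Lyz1 are also found in Lyz2, which had 44.0, 24.6, 55.8 and 112.7 CPM in healthy libraries and 50.5, 54.7 and 27 CPM at acute 24 h and was not called (adjusted p = 0.583).

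The other members called lower at acute 24 h were Cybb (-1.61), the NADPH oxidase subunit of phagocytes, Adgre1 (-1.77), Ptprc (-1.23), the pan-leukocyte phosphatase CD45, and Aif1, a calcium-binding protein of macrophages. Aif1 had 0.725, 0, 1.6 and 3.9 CPM in healthy libraries and 3 counts in acute 24 h replicate 2 alone (-3.99, SE 1.41, adjusted p = 0.0312). Each of these 4 calls was lost in at least 1 fit that left out a single library, and the count of 8 became 5 without healthy replicate 4, acute 24 h replicate 1 or acute 24 h replicate 3. Marco was the member called higher, and it had 1.91 CPM in replicate 2 and no count in replicates 1 and 3, so that call rested on 1 library. Without that library no change of Marco was left. The C1q chains, Cd14, Cd68, Spi1 and Irf8 did not pass the test. All 10 hepatocyte markers were called lower at this time (99.2 to 333.3 CPM in sum against 678 to 4737 CPM in healthy libraries), whereas 6 of 7 tested neutrophil markers were called higher (4.13 to 21.8 CPM against 0.39 to 2.18 CPM). The part of other cells' RNA in the differences of the members was not tested.

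At 72 h after 1 injection the members parted. Of 37, 6 were higher than in healthy HSCs and 1 was lower, where 8.23% of all genes were called higher and 4.33% lower. DESeq2 called 11 higher and 1 lower (1594 and 1031 of 37181 genes with a count). Without a filter on low counts 1 (Lyz2) was higher and 1 (Mrc1) lower (1346 and 706 of the same genes). The median log2 fold change was 0.81 (0.68 with unseen genes at their limit), against 0.00 over all genes. Lysosomal and antimicrobial genes made up 4 of the 6, and the other two were the monocyte genes Ly6c2 and Chil3.

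Lyz2 had 193.4, 185.2, 171.3 and 335 CPM at acute 72 h, and each of these lay above the highest healthy library (1.90, SE 0.50, adjusted p = 0.00858). Mpeg1, a pore-forming protein of phagosomes (1.23, SE 0.39, adjusted p = 0.0262), Cybb (1.31) and Lyz1 (1.33, SE 0.43, adjusted p = 0.0293) moved less. Ly6c2, the surface antigen of inflammatory monocytes, had 0, 0, 1.18 and 1.21 CPM in healthy libraries and 8.06, 2.08, 1.46 and 2.56 CPM at acute 72 h (2.51, SE 0.85, adjusted p = 0.0361), and 9.46% of its windows also occur in Ly6c1. Chil3, a chitinase-like protein of monocytes and alternatively activated macrophages, had 1.68 and 3.12 CPM in replicates 1 and 2 and none in replicates 3 and 4, which made it at least 4.46-fold higher against the floor (adjusted p = 0.0449). That call was lost in 6 of 8 fits that left out 1 library. Of 7 tested neutrophil markers 4 were called higher in the same comparison (7.97 to 11.6 CPM in sum), and their part in the result was not tested.

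Mrc1 stayed low at acute 72 h, with 10.7, 8.23, 3.66 and 2.48 CPM (-2.52, SE 0.47, adjusted p = 0.000438), all below the lowest healthy library. The sinusoidal endothelial list was low beside it, with 8 of 10 markers called lower and 54.1 to 156.9 CPM in sum. Of the 7 calls at this time, those of Lyz2 and Mrc1 held in every fit that left out 1 library. The count of members called higher became 1 without healthy replicate 1 or 2, and 3 without acute 72 h replicate 1 or 4.

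The step from 24 h to 72 h was tested on its own. Of 37 members, 11 were higher at 72 h and none was lower, where 11.2% of all genes tested were called higher and 3.76% lower. At an unadjusted p below 0.05 another 5 members differed without being called. DESeq2 called 16 members higher and none lower, and 2347 genes higher and 770 lower of 37181 with a count. Lyz1, without a count at 24 h, had 4.25, 3.55, 3.90 and 9.91 CPM at 72 h and was at least 20.5-fold higher (adjusted p = 2.46e-06). Adgre1 rose from 0.356, 0.694 and 0.702 CPM to 5.31, 3.46, 3.90 and 5.58 CPM (2.94, SE 0.57, adjusted p = 0.000533), and Cybb (2.92, SE 0.54, adjusted p = 0.000339) and Lyz2 (2.33, SE 0.57, adjusted p = 0.00426) rose as well. Slc40a1 returned from 137, 176 and 178 CPM to 471, 346, 705 and 712 CPM (1.77), a range that overlapped with healthy. Mpeg1 and Csf1r were also called higher, and these 7 calls held in every fit that left out 1 library. Laptm5, Ptprc, Tyrobp and Cd52 were called too, but each lost its call in at least 1 such fit, and the count became 7 without acute 24 h replicate 3. Other cell types moved over the same step. Of 10 hepatocyte markers 8 were called higher (from 99.2 to 333.3 CPM in sum to 1177 to 3237 CPM), as were 2 of 8 B cell markers (from 1.56 to 1.87 CPM to 5.31 to 10.04 CPM). T and NK cell markers went from 0.351 to 5.07 CPM to 6.67 to 11.2 CPM with none of 9 called, and 1 of 7 neutrophil markers was called lower. Their part in the rise of the members was not tested.

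**Figure D2:**
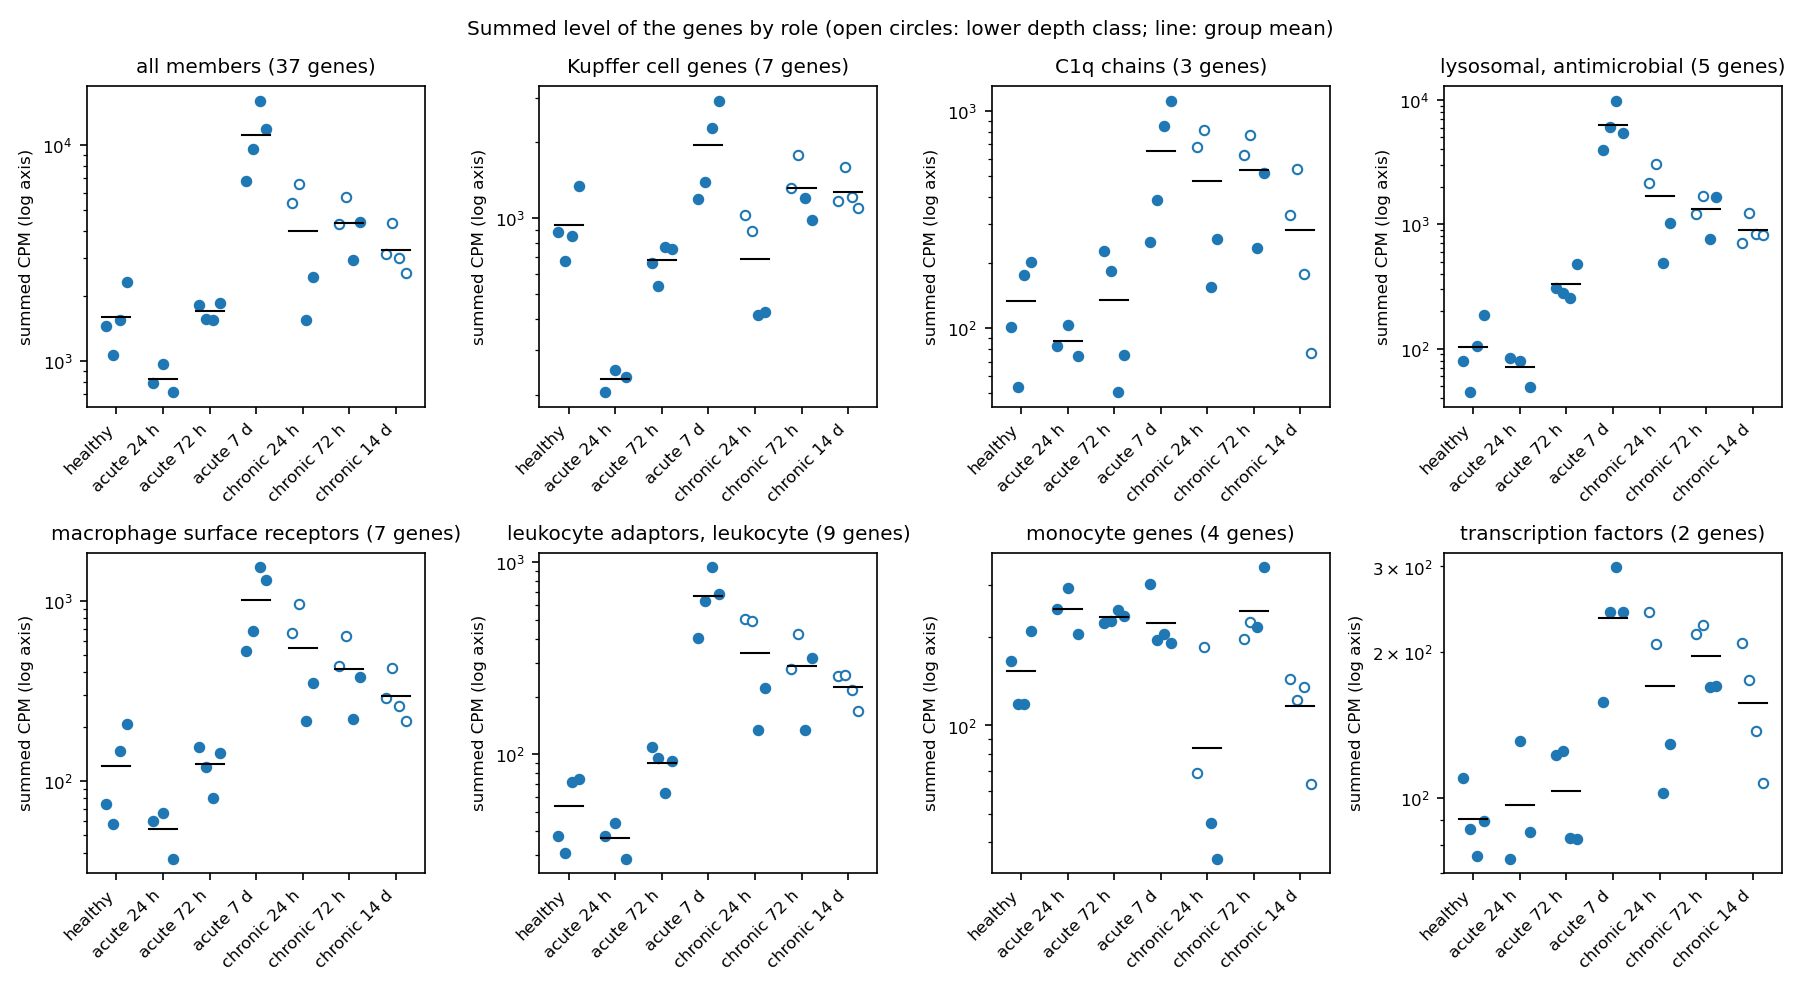
Summed CPM of the members (log axis) in each library by group, for all 37 and for each role, with open circles for libraries of lower depth and a line at the group mean. The lysosomal and antimicrobial genes reach 3958 to 9882 CPM at acute 7 d from 44.4 to 184.8 CPM in healthy libraries, whereas the 4 monocyte genes, whose sum is mostly Plac8 except in chronic 24 h replicate 1, stay within 35.1 to 346.2 CPM in all groups.

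The highest levels of most members were seen 7 d after the single injection. Of 37 members, 30 were called higher than in healthy HSCs and none lower, where 9.23% of all genes were called higher and 5.64% lower. A test with DESeq2 called 32 members higher and none lower, and 1892 genes higher and 1216 lower of 37181 with a count. By edgeR none of the 37 had a negative log2 fold change, and at an unadjusted p below 0.05 another 4 differed without being called. The median log2 fold change of the members was 3.66 (3.33 with unseen genes at their limit), against 0.01 over all genes. All 5 lysosomal and antimicrobial genes, 6 of 7 surface receptors, 8 of 9 leukocyte genes, all 3 C1q chains, 3 of 4 monocyte genes and both transcription factors were called. Of 7 Kupffer cell genes edgeR called only 3, and DESeq2 called Clec4f and Cd163 as well.

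Lyz2, the lysozyme of macrophages and neutrophils, had 3467, 5047, 8584 and 4523 CPM at acute 7 d. All of these lay above the 112.7 CPM of the highest healthy library (log2 fold change 6.51, SE 0.62, adjusted p = 1.71e-07). Lyz2 took 38.1% to 53.7% of the counts of all 37 members at this time, against 2.3% to 4.88% in healthy libraries. Its neighbour Lyz1 had 78.7, 114, 193 and 115 CPM (5.86), so that the ratio of Lyz2 to Lyz1 lay between 39.3 and 44.5 in the 4 libraries, against 19.4 to 32.3 in healthy ones.

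Receptors rose with it. Cd14, the co-receptor for lipopolysaccharide, went from 17, 12.3, 26 and 49.7 CPM to 230, 284, 676 and 533 CPM (4.04). Csf1r had 156, 153, 489 and 441 CPM (2.86). The 2 groups did not overlap for either receptor. Adgre1 reached 20.5 to 46.4 CPM (4.10), Fcgr3 75.6 to 263 CPM (3.66) and Fcgr1 13.6 to 28.1 CPM (4.53), the last 2 being Fc receptors for immunoglobulin G. Fcgr3 shares 5.42% of its windows with Fcgr2b. Mrc1 was the receptor that was not called, with 27.2, 46.3, 36.1 and 71.4 CPM (0.33, adjusted p = 0.641).

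Among the adaptors, Tyrobp (4.20) and Fcer1g (3.42), which signal for many receptors of myeloid cells, and the lysosomal Laptm5 (3.70) rose. Laptm5 had 12.2, 15.8, 33.0 and 32.1 CPM in healthy libraries and 149, 294, 472 and 299 CPM at acute 7 d. Ptprc had 5.53, 4.78, 8.76 and 4.07 CPM in healthy libraries and 40.1, 52.0, 36.9 and 56.2 CPM at acute 7 d (3.00), again without overlap. Coro1a, Cd52 and Cd53, which lymphocytes express too, rose by 4.64, 4.49 and 3.33 on the log2 scale. Markers of other leukocytes moved with them. All 7 neutrophil markers tested, of 10 listed, were called higher (0.39 to 2.18 CPM in sum in healthy, 35.0 to 58.8 CPM at acute 7 d), as were 7 of 9 tested T and NK cell markers (1.91 to 4.39 CPM against 28.0 to 42.4 CPM), 6 of 8 B cell markers and 6 of 8 tested dendritic cell markers, and their part in the members' rise was not tested. The summed stellate cell markers were 18686 to 21615 CPM at this time, below the 29990 CPM of the lowest healthy library.

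The genes most tied to Kupffer cells moved less. Clec4f, a lectin found on Kupffer cells alone among mouse macrophages, had 80.7, 49.0, 134 and 217 CPM in healthy libraries and 120, 162, 406 and 787 CPM at acute 7 d, and the groups overlapped (1.62, adjusted p = 0.0970). Timd4, a receptor for phosphatidylserine (1.36, adjusted p = 0.295), and Cd163, the haemoglobin scavenger receptor (1.84, adjusted p = 0.0648), did not pass edgeR either. DESeq2 called both Clec4f and Cd163 higher. Cd163 was also called with the depth class as a term and with higher-depth libraries only. Vsig4, the complement receptor of Kupffer cells (2.03, SE 0.67, adjusted p = 0.0299), and Cd5l, a secreted inhibitor of macrophage apoptosis (2.33), were called, and each lost its call in at least 3 of the 8 fits that left out 1 library. Acute 7 d replicate 4 was the highest of all 27 libraries for Clec4f, Timd4, Vsig4, Cd5l, Cd163 and Slc40a1. Marco, at 0 in healthy libraries, had 1.86, 0.984, 2.25 and 2.07 CPM and was at least 6.65-fold higher (adjusted p = 0.00822). The difference between the Kupffer cell genes and the other roles was not tested, and the share of called members per role is a count.

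The ratio of Lyz2 to Clec4f, a pair picked after their values had been seen, was also followed within each library. It was 0.417 to 0.545 in healthy libraries, 0.745 to 1.49 at acute 24 h, 1.95 to 13.7 at acute 72 h and 5.75 to 31.1 at acute 7 d. After chronic injury it was 10.2 to 15.2 at 24 h, 3.49 to 17.5 at 72 h and 3.55 to 19.0 at 14 d. No injured library reached down to the healthy range for this pair. The ratio of the 4 monocyte genes to the 7 Kupffer cell genes, both summed, was 0.139 to 0.189 in healthy libraries, 0.869 to 1.22 at acute 24 h, 0.313 to 0.423 at acute 72 h and 0.0654 to 0.254 at acute 7 d, and after chronic injury it ran from 0.0578 to 0.352. The summed ratio overlapped with healthy at acute 7 d, chronic 24 h and chronic 72 h, and lay below all healthy libraries at chronic 14 d (0.0578 to 0.123). In healthy libraries, the 3 acute groups and chronic 14 d it was mostly Plac8 over Slc40a1, genes that other cells share. Slc40a1 was also the larger part of the Kupffer cell sum in each chronic 24 h library. The summed ratio is therefore not a measure of monocytes against Kupffer cells. At acute 24 h Slc40a1 fell (-2.18) and none of the 4 monocyte genes was called.

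The C1q genes lie together on the minus strand of chromosome 4 (GRCm38), with C1qb at 136880129 to 136886187, C1qc at 136889804 to 136893065 and C1qa at 136895917 to 136898803, and their counts stayed close to each other in every group. C1qb had 30.6, 19.6, 62.0 and 70.1 CPM in healthy libraries and 89.8, 140, 338 and 416 CPM at acute 7 d (2.43). C1qa and C1qc changed by 2.15 (SE 0.63, adjusted p = 0.0159) and 2.25 (SE 0.65, adjusted p = 0.0143), and their calls were lost without healthy replicate 2 or acute 7 d replicate 4. Spi1 rose from 3.54, 0.975, 7.33 and 4.77 CPM to 34.5, 51.1, 91.1 and 60.8 CPM (3.83). Irf8, the partner factor of PU.1 in monocytes and dendritic cells, started far higher, at 107, 85.4, 68.7 and 84.7 CPM, and moved to 123, 190, 208 and 181 CPM (1.02, SE 0.24, adjusted p = 0.00322), and without healthy replicate 3, acute 7 d replicate 2 or acute 7 d replicate 3 it was no longer called.

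The monocyte genes were not of one kind. Ms4a6c had 10.7 to 16.6 CPM at acute 7 d against 0 in 3 healthy libraries and 0.59 CPM in the other (6.33, SE 1.23, adjusted p = 0.000622), although 47.7% of its windows lie over an antisense gene whose reads may be counted with it. Chil3, of which 13% is shared with Chil4, had 1.21, 1.89, 0.322 and 1.53 CPM and was at least 4.6-fold higher (adjusted p = 0.0408). The call of Chil3 was lost in 7 of 8 fits that left out 1 library and with higher-depth libraries only (adjusted p = 0.0571), and Chil3 was not among the members called when only these 2 groups were fitted. Plac8, a gene of monocytes, lymphocytes and also other cells, had 166, 118, 116 and 208 CPM in healthy libraries and 287, 174, 185 and 176 CPM at acute 7 d, which was not called (0.43, adjusted p = 0.506). A further list of 12 monocyte genes had 3 called higher and 1 lower at acute 24 h, and 8 called higher at acute 72 h. After chronic injury 10 were called higher at 24 h, 9 at 72 h and 10 at 14 d. At acute 7 d 10 were called higher. Among them F13a1, a coagulation factor subunit of monocytes and macrophages, and S100a4 had no count in healthy libraries and means of 43.0 and 7.61 CPM at acute 7 d, and Ace went from a mean of 0.354 to 23.6 CPM.

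**Figure D3:**
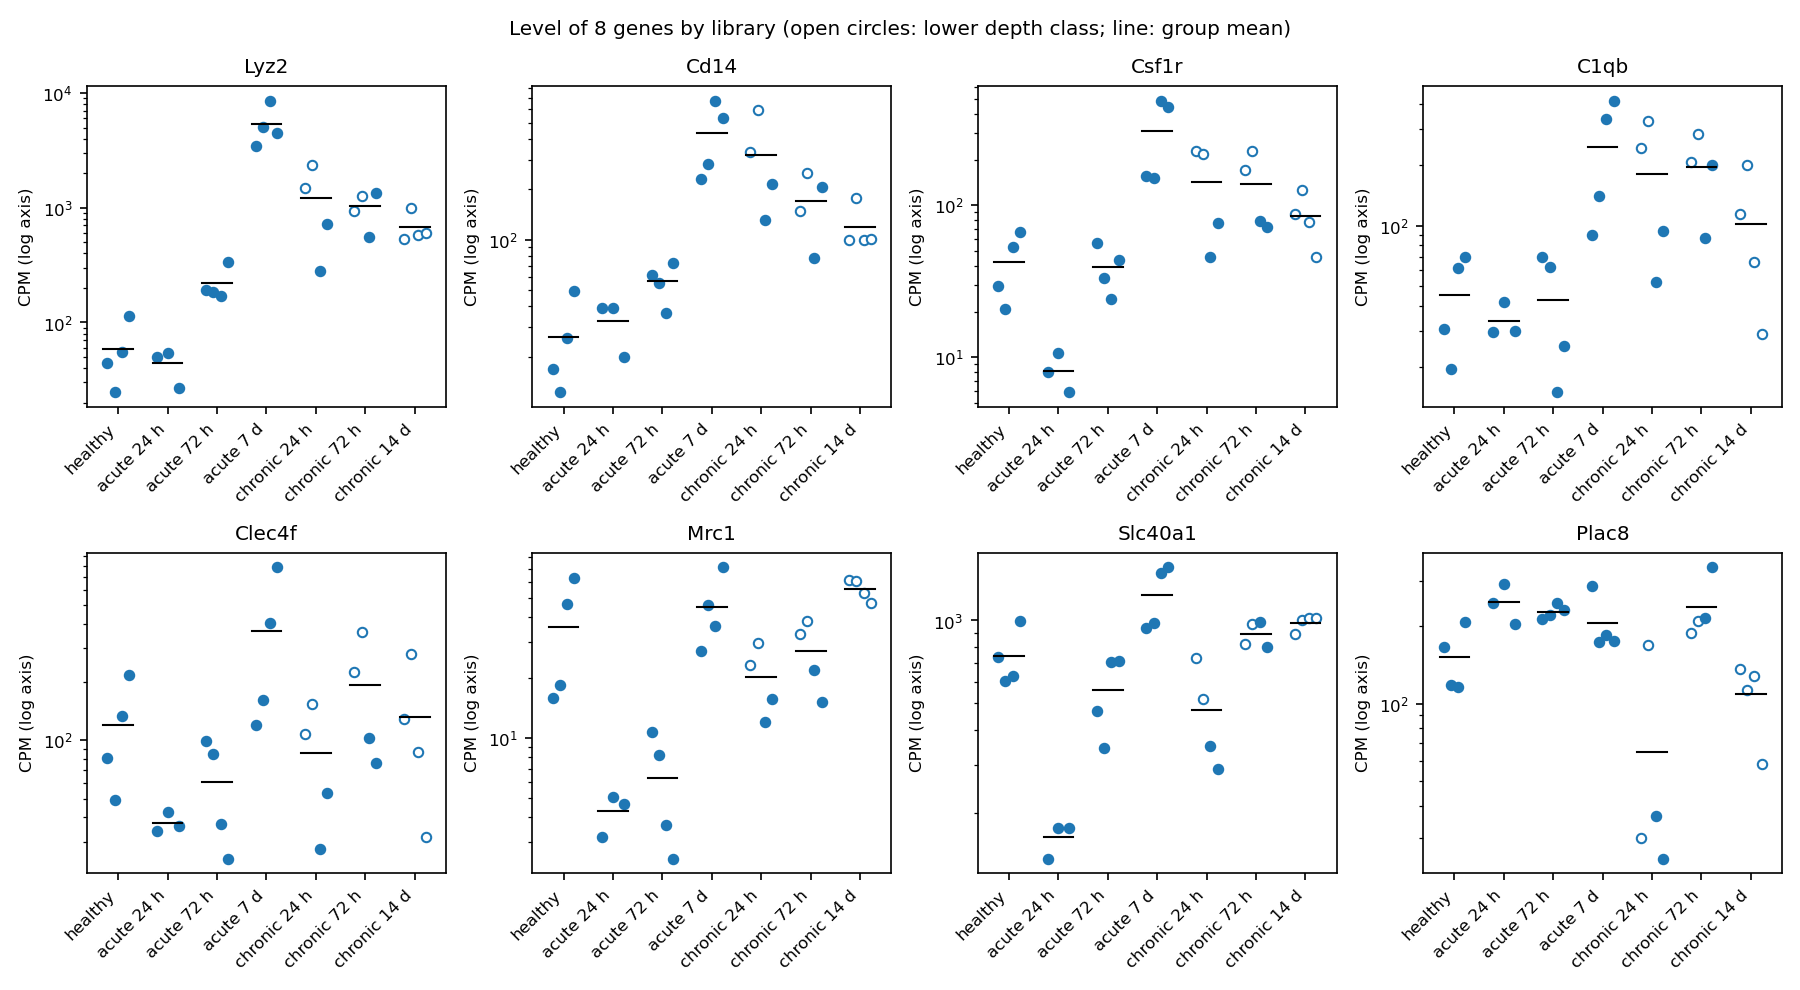
CPM of 8 members in each library by group, with open circles for libraries of lower depth and a line at the group mean. Lyz2, Cd14 and Csf1r are highest at acute 7 d, Mrc1 and Slc40a1 are lowest at acute 24 h or 72 h and rise again after it, with Slc40a1 at 938 to 1562 CPM at acute 7 d against 604 to 996 CPM in healthy libraries, and Plac8 is lowest in 3 of the 4 chronic 24 h libraries.

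The next question was what repeated injury did. At 24 h after the last of 8 injections, 26 of 37 members were called higher than in healthy HSCs and 1 was lower, where 11.2% of all genes were called higher and 8.11% lower. Their median log2 fold change was 2.59 (2.43 with unseen genes at their limit), against -0.03 over all genes. All lysosomal and antimicrobial genes, 6 of 7 receptors, all C1q chains and 7 of 9 leukocyte genes were called, with Mrc1, Aif1 and Lst1 as the exceptions, whereas of 7 Kupffer cell genes only Marco was.

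Markers of other cells differed in the same comparison. All 7 tested neutrophil markers were called higher (19.9 to 59.2 CPM in sum against 0.39 to 2.18 CPM in healthy libraries), as were 4 of 9 tested T and NK cell markers (19.2 to 30.1 CPM against 1.91 to 4.39 CPM) and 2 of 8 B cell markers (17.4 to 34.3 CPM against 6.16 to 16.03 CPM). Of 12 stellate cell markers 7 were lower and 1 was higher, and their sum was 15936 to 18697 CPM against 29990 to 49222 CPM. The part of these cells in the members' levels was not tested.

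Marco, a scavenger receptor for bacteria, had 8.39, 5.63, 1.67 and 5.20 CPM and was at least 19.4-fold higher against the floor (adjusted p = 0.00101). Lyz2 had 1490, 2336, 280 and 717 CPM (4.35) and Cd14 334, 596, 131 and 214 CPM (3.60), neither overlapping with healthy. Ms4a7, a tetraspanning protein of mature macrophages, rose from at most 0.293 CPM to 7.49, 10.8, 2.19 and 3.44 CPM (5.33, SE 1.16, adjusted p = 0.00131), and Ms4a6c rose by 4.73 (SE 1.20, adjusted p = 0.00419). Ly6c2 reached its highest value of all groups here, with 30.6, 9.47, 5.79 and 6.08 CPM (4.38).

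Plac8 went the other way. It had 30.0, 169, 36.4 and 24.9 CPM, of which 3 libraries lay far below the 116 to 208 CPM of healthy ones and replicate 2 within them (-1.23, SE 0.43, adjusted p = 0.0315). The call of Plac8 was lost in 5 of 8 fits that left out 1 library, among them the fits without each of the 3 low libraries. Clec4f (108, 153, 27.4 and 53.8 CPM), Timd4, Vsig4, Cd5l, Cd163, Slc40a1 and Irf8 did not pass the test.

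Within this group the members followed library depth. For 35 of 37 members both libraries of lower depth lay above both of higher depth, which was true of 24.2% of all genes tested, and the exceptions were Lyz1 and Plac8. The median ratio of lower-depth to higher-depth libraries was 3.02 over the members and 1.00 over all genes. When only libraries of higher depth were fitted, 20 members were called higher and 2 lower (Plac8 and Slc40a1), and the calls of C1qa, C1qb, C1qc, Csf1r, Fcgr3 and Chil3 were lost. Of the 18983 genes tested in that fit, 1909 were called higher and 1446 lower. The change of Lyz2 was then 3.08 and that of Cd14 2.73 on the log2 scale, and both were still called. Whether the depth classes were separate runs or separate experiments is not given in the sources used here, and the part of depth in the difference was not tested beyond these fits.

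At 72 h after chronic injury, 25 of 37 members were higher than in healthy HSCs and none was lower, where 7.88% of all genes were called higher and 4.2% lower. DESeq2 called 26 members higher and none lower, and 1665 genes higher and 901 lower of 37181 with a count. By edgeR the median log2 fold change over the members was 2.29, against 0.00 over all genes, and at an unadjusted p below 0.05 another 3 differed without being called. Marco (at least 17.8-fold, adjusted p = 0.00209), Ms4a7 (4.68, SE 1.15, adjusted p = 0.00592), Ms4a6c (4.42, SE 1.20, adjusted p = 0.0110) and Lyz2 (4.12, SE 0.55, adjusted p = 1.31e-05) had the largest changes. With higher-depth libraries only Ms4a6c was no longer called (3.37, adjusted p = 0.0716), nor was it among the members called when only these 2 groups were fitted. Lyz2 had 934, 1276, 560 and 1342 CPM. Chil3 was again without a count in all 4 libraries, as in healthy mice. Clec4f, at 225, 365, 102 and 76.5 CPM, overlapped with healthy (0.68, adjusted p = 0.535), and Cd5l, at 193, 301, 69.2 and 66.7 CPM, lay just above all healthy libraries without passing the test (1.97, adjusted p = 0.0551). Irf8 passed the adjusted p but stayed below 2-fold (0.95, adjusted p = 0.00665). In this group both libraries of lower depth lay above both of higher depth for 19 of 37 members, against 16.8% of all genes. With only higher-depth libraries 18 members were called higher, where 1371 of 18983 genes were called higher and 611 lower. Beside the members, all 7 tested neutrophil markers (17.7 to 35.0 CPM in sum), 5 of 9 tested T and NK cell markers (6.46 to 27 CPM) and 3 of 8 B cell markers (25.6 to 66.1 CPM) were called higher, and 7 of 12 stellate cell markers were lower (21757 to 24608 CPM in sum). Their part in the result was not tested.

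At 14 d after the last injection 16 of 37 members were still higher than in healthy HSCs and none was lower, where 4.55% of all genes were called higher and 1.17% lower. DESeq2 called 17 members higher and none lower, and 1161 genes higher and 265 lower of 37181 with a count. By edgeR the median log2 fold change was 1.58, against -0.03 over all genes, and another 6 members had an unadjusted p below 0.05 without being called. The 16 were Marco, Lyz1, Lyz2, Mpeg1, Cybb, Adgre1, Cd14, Fcer1g, Tyrobp, Ptprc, Laptm5, Coro1a, Cd52, Cd53, Ly6c2 and Spi1. Lyz1 had 20.5, 43.2, 36.1 and 56.7 CPM (4.18, SE 0.45, adjusted p = 8.14e-06), Cd52 17.5 to 27.5 CPM (3.66, SE 0.55, adjusted p = 0.000188) and Coro1a 10.6 to 22.4 CPM (3.59, SE 0.77, adjusted p = 0.00449). Marco had 5.54, 5.13, 3.61 and 0 CPM and was at least 13.3-fold higher (adjusted p = 0.00738). The C1q chains, Csf1r, Fcgr1, Fcgr3 and Cd68 were not called at this time. All 4 libraries were of lower depth. With the depth class as a term in the fit 3 members were called higher, namely Lyz1, Lyz2 and Cd52, with a median log2 fold change of 0.65. Of 18758 genes, 427 were then called higher and 321 lower. Only chronic 24 h and 72 h held both depth classes, so the term was estimated from them. This fit therefore cannot separate depth from group at 14 d. Other leukocyte lists were high beside the members, with 7 of 8 B cell markers (64.5 to 108.2 CPM in sum) and 6 of 9 tested T and NK cell markers (21.01 to 48.75 CPM) called higher. All 7 tested neutrophil markers were called higher too, with the highest mean sum of all groups (52.2 to 72.1 CPM against 0.39 to 2.18 CPM in healthy libraries), and their part in the result was not tested.

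**Figure D4:**
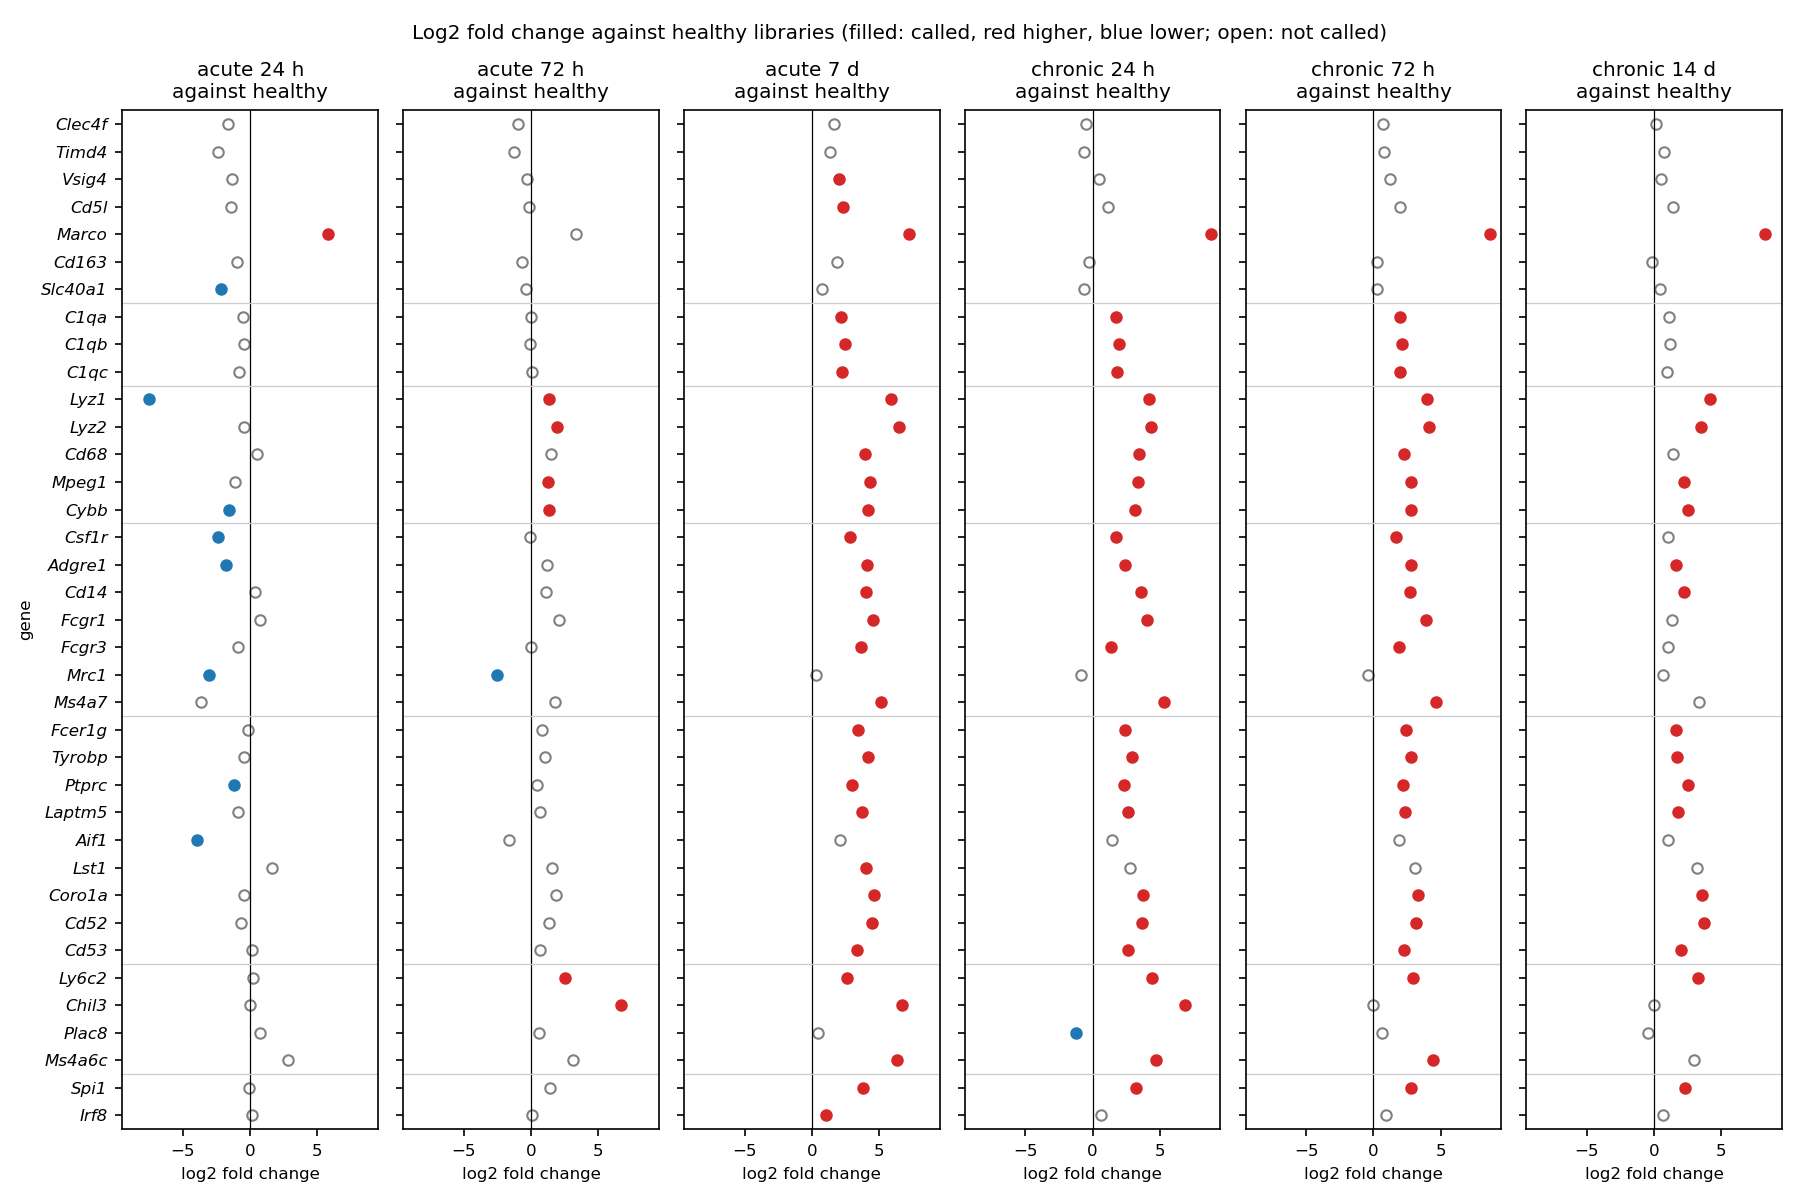
Log2 fold change against healthy of each of the 37 members (points) in the 6 injured groups, filled where the member was called and open where it was not. The medians run from -0.71 at acute 24 h to 3.66 at acute 7 d, and from 2.59 at chronic 24 h to 1.58 at chronic 14 d.

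The comparison of the last injury of a series with a first injury, both after 24 h, gave 27 members higher and 1 lower in the chronic group, where 10.9% of all genes were called higher and 3.05% lower. Members had a median log2 fold change of 3.00 (2.97 with unseen genes at their limit), against 0.01 over all genes. Lyz1 was at least 148-fold (adjusted p = 5.7e-08) and Ms4a7 at least 22.7-fold higher (adjusted p = 0.00121), since neither had a count in acute 24 h libraries. Aif1, with 3 counts in 1 of those libraries, differed by 5.43 (SE 1.41, adjusted p = 0.0074). Lyz2 differed by 4.77 (SE 0.65, adjusted p = 1.44e-05), with no overlap between 280 to 2336 CPM and 27 to 54.7 CPM. Csf1r (4.11), Adgre1 (4.17), Cybb (4.76) and Ptprc (3.53) had been low in the acute group and differed here as well. Plac8 was the member that was lower (-1.93, SE 0.46, adjusted p = 0.00374), with 204 to 291 CPM after a first injury against 24.9 to 169 CPM. With libraries of higher depth only, 15 members were called higher and 1 lower, where 1389 of 18983 genes were called higher and 556 lower. Hepatocyte markers differed in the same comparison (7 of 10 called higher, 752.7 to 3081 CPM in sum against 99.2 to 333.3 CPM), as did B cell markers (7 of 8, 17.4 to 34.3 CPM against 1.56 to 1.87 CPM), T and NK cell markers (5 of 9, 19.2 to 30.1 CPM against 0.351 to 5.07 CPM) and 2 of 7 neutrophil markers, and their part in the result was not tested. Both this comparison and those with healthy mice use the chronic 24 h libraries, so their values are not independent.

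From 24 h to 14 d after chronic injury, 5 members fell and 2 rose, where 6.11% of all genes were called lower and 6.65% higher. Here the median log2 fold change was -0.62, against 0.01 over all genes. Cd68, a lysosomal glycoprotein of macrophages, fell from 115, 190, 40.2 and 48.6 CPM to 25.9, 28.2, 22.4 and 17.0 CPM (-2.07, SE 0.55, adjusted p = 0.00823), without overlap, and this was the call that held in every fit that left out 1 library. Fcgr1 (-2.69, SE 0.87, adjusted p = 0.0270), Cd14 (-1.41, SE 0.47, adjusted p = 0.0319), Mpeg1 (-1.16) and Tyrobp (-1.22, SE 0.43, adjusted p = 0.0445) also fell, and without chronic 24 h replicate 2 or any of the chronic 14 d replicates 1, 3 and 4 the count became 1. Lyz1 had 20.3 to 55.9 CPM at 24 h and 20.5 to 56.7 CPM at 14 d and was not called.

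Mrc1 rose from 23.1, 29.8, 11.9 and 15.6 CPM to 61.3, 60.9, 53.3 and 47.3 CPM (1.48, SE 0.45, adjusted p = 0.0198). Slc40a1 rose from 730, 519, 351 and 289 CPM to 892, 1003, 1018 and 1018 CPM (1.06, SE 0.26, adjusted p = 0.00466). In both cases every library at 14 d lay above every library at 24 h. The calls were lost without chronic 24 h replicate 3 or replicate 4, after which the count was 0. Of the 10 sinusoidal endothelial markers 8 were called higher in the same comparison (69.9 to 219.2 CPM in sum at 24 h, 420.6 to 726.2 CPM at 14 d), and their part in the rise of Mrc1 was not tested. In the libraries of lower depth alone, an alternative added after the data had been seen, 13 members fell, Lyz2, Csf1r and Spi1 among them, and 1, Mrc1, rose. Of the 16341 genes tested in that fit, 778 were called lower and 671 higher.

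Genes that attract or feed macrophages were measured in the same libraries, from a list of 13 of which 11 were tested. Csf1, a ligand of Csf1r named here for that role, had a mean of 434.3 CPM in healthy HSCs and was called in none of the 9 comparisons, with adjusted p from 0.593 to 0.991 by edgeR. Il34, the other ligand, fell from a mean of 123.5 CPM to 45.9 CPM at acute 72 h (-1.43), 44.5 CPM at acute 7 d (-1.47) and 45 CPM at chronic 24 h (-1.46), and stood at 117.6 CPM at chronic 14 d (-0.07, adjusted p = 0.939). Ccl7, which draws monocytes from the blood through Ccr2, rose from a mean of 22.4 CPM to 153.9 CPM at acute 24 h (2.78), 283.9 CPM at acute 72 h (3.67) and 390.9 CPM at chronic 24 h (4.13), and fell to 32.6 CPM at chronic 14 d. Ccl4 was lower at acute 24 h (-1.36, adjusted p = 0.0357) and higher at acute 7 d (2.86). Against healthy, the list had 2 called higher and 4 lower at acute 24 h, 4 and 1 at acute 72 h, 2 and 1 at acute 7 d, 6 and 2 at chronic 24 h, 4 and 0 at chronic 72 h and 3 and 0 at chronic 14 d.

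A further list of 10 Kupffer cell genes, apart from the 37, did not move as a block. Folr2 had no count in any library and 9 were tested. Fcna, which encodes ficolin A, had a mean of 2041 CPM in healthy HSCs. This lay above the mean sum of all 37 members there (1591 CPM), and which cells its RNA came from was not tested. Fcna was lower in each injured group than in healthy HSCs except acute 24 h, where it was not called. Its called log2 fold changes ran from -1.32 at chronic 14 d to -3.98 at chronic 24 h. Hmox1, the haem-degrading enzyme, was higher at acute 24 h (2.03), acute 72 h (1.05), acute 7 d (1.98), chronic 24 h (2.08) and chronic 72 h (1.57). Besides these, Id3 was called higher at acute 24 h (1.30) and Clec1b at acute 7 d (1.96), and no other gene of this list was called against healthy in any group.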

How the data were processed

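RNA of 27 libraries of mouse HSCs in 7 groups was sequenced in single reads of 75 bases. Per the labels and methods, the authors aligned reads with STAR to GRCm38 and deposited raw counts per gene, with StringTie named among the tools. Versions, the counting step, its strand setting and the annotation release are not given in the sources used here. The deposited counts were whole numbers, 1 column per library, with no column outside the series. Replicates are separate experiments per the methods.

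Gene symbols and positions came from GENCODE mouse release M21 (53274 of 53379 identifiers matched). CPM are counts scaled to a common library total, and log2 CPM used a prior count of 2. The main test was edgeR 4.0.16 (quasi-likelihood, TMM scaling, filterByExpr by group, 1 fit over all 27 libraries with a mean per group), called at an adjusted p of 0.05 and a fold minimum of 2, with SE taken as the absolute log2 fold change over the square root of F. Floors were 3 counts per library and cover counting error only. The scripts were tested on simulated counts. Shared sequence was measured as the share of a gene's 75-base exon windows found in another gene or lying over one.

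The members and lists were chosen with earlier results of these data known. All 37 members could be named. Values in every library were planned for the members of highest mean CPM in each role and those called in opposite directions. Values of other members are printed as well. Full statistics were planned for at most the 4 highest and 4 lowest changes of a comparison. From any other list at most 4 genes were to be named, plus genes at 0 throughout. Csf1 and Il34 were named outside this rule. Same-numbered replicates were not treated as pairs, since in no comparison did every pair's correlation of deviations exceed 0.1 (they ran from -0.17 to 0.15). Alternatives were DESeq2 1.42.0 (size factors, or its test), library size alone, no filter, no fold minimum, a replicate block, depth class as a term, a single depth class, only the groups compared, and leaving out each library. Columns were mapped to samples by title.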

Additional observations from a re-analysis of the deposited data

Results flagged for a closer look

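In 18 of 266 groups of 4 libraries, taken over the members and their sums by role, 1 library lay apart from the other three by more than the 95% critical gap. Chance flags about 1 in 20 such groups if values are independent and normally distributed. That rate does not hold here for genes near 0, since a gene with a count in 1 library of 4 is always flagged. Marco and Aif1 at acute 72 h and Lst1 and Ms4a6c in healthy libraries were flagged in this way. A sum and the gene that makes up most of it are not independent either. All values are CPM.

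At acute 72 h, replicate 4 was high for Lyz1 (9.912, others 3.55 to 4.252), Lyz2 (335, others 171.3 to 193.4) and Ms4a7 (1.704, others 0 to 0.2657). Replicate 2 was the only library of that group with a count for Marco (0.4329) and Aif1 (1.991), replicate 3 was low for Tyrobp (4.308, others 7.667 to 7.795), and replicate 1 was high for Ly6c2 (8.061, others 1.463 to 2.556).

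At acute 7 d, replicate 1 was high for the 4 monocyte genes in sum (303.7, others 191.4 to 204.1), which was mostly Plac8 (286.5, others 173.7 to 185.3).

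At chronic 24 h, Plac8 was high in replicate 2 (168.8, others 24.88 to 36.39) and Ly6c2 in replicate 1 (30.58, others 5.788 to 9.472). At chronic 72 h, Aif1 was high in replicate 2 (10.43, others 4 to 4.857).

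At chronic 14 d, replicate 2 was high for Timd4 (17.37, others 6.758 to 8.178), Lyz2 (989, others 536.2 to 599.5) and Cd14 (177.9, others 99.82 to 101.4), and replicate 1 was low for Slc40a1 (892.5, others 1003 to 1018). Among healthy libraries, replicate 3 was the only one with a count for Lst1 (2.359) and Ms4a6c (0.5898).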

How the results depend on the processing

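Of 160 calls of single members, all 160 kept direction and call under the DESeq2 test and without a fold minimum, 159 under DESeq2 size factors and 158 under library size alone, and 145 with a replicate block. With the depth class as a term 129 held and 31 were lost, without a filter 130 and 30, with only the groups compared 131 and 22, and with higher-depth libraries only 106 and 31. Over all fits that left out 1 library, 1049 calls held and 182 were lost. The call that turned was Marco at acute 24 h, whose log2 fold change was 0 without replicate 2 of that group and at most 6.35 in the other fits that left out 1 library. Without a filter, no member was lower at chronic 24 h (1 in the main test) or higher at acute 24 h (1), 1 (Lyz2) was higher at acute 72 h (6), and 1 (Cd68) was lower at chronic 14 d than at chronic 24 h (5). With only the groups compared, these counts were 0, 0, 2 and 1, and 5 were lower at acute 24 h (8) and none lower at chronic than acute 24 h (1). With the replicate block none was higher at acute 24 h. With the depth term 2 were lower at chronic 24 h (Mrc1 and Plac8), 3 higher at chronic 14 d (16) and none higher at 14 d than at 24 h (2). With higher-depth libraries alone 2 were lower at chronic 24 h and 15 higher than at acute 24 h (27), and the median log2 fold change of these comparisons was 1.73 and 1.86. The DESeq2 test called 11 higher at acute 72 h, library size alone 3 lower at 14 d than at 24 h, and lower-depth libraries alone, added after the data had been seen, 13 lower and 1 higher there. The depth term moved the median to 0.65 at chronic 14 d and to 2.13 between chronic and acute 24 h. At chronic 14 d, where all libraries were of lower depth, that term came from other groups and cannot separate depth from group. Leaving out 1 library at a time gave 0 to 1 lower at chronic 24 h, 0 to 2 higher and 5 to 9 lower at acute 24 h, 1 to 9 higher and 1 to 2 lower at acute 72 h, 7 to 13 higher from acute 24 h to 72 h, and 0 to 3 higher and 1 to 6 lower from chronic 24 h to 14 d. The replicate numbers mark no shared batch in the labels. Except where a setting fits fewer libraries or genes, the cause of a lost call was not tested. Libraries of 6314801 to 13052838 counts leave members of a few CPM with few counts each.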
